A study of Mus musculus with 14 samples.

Results

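In all, 9 chemokine genes that gut epithelial cells are known to use were followed through the 4 genotypes of a mouse small intestinal organoid experiment: *Cxcl1*, *Cxcl2*, *Cxcl5*, *Cxcl10*, *Cxcl16*, *Ccl20*, *Ccl25*, *Ccl28* and *Cx3cl1*. They were chosen by symbol, and all 9 of 9 were among the 18781 genes of the deposited table. Organoids were grown from crypts in Matrigel without any added stimulus, and mRNA was sequenced from 14 libraries. WT organoids (4 libraries) came from ATG16L1flox/flox_RNaseH2Bflox/flox mice without Cre. *Atg16l1* ΔIEC organoids (4 libraries) were ATG16L1flox/flox_VillinCre+/-, *Rnaseh2b* ΔIEC organoids (2 libraries) were RNaseH2Bflox/flox_VillinCre+/-, and *Atg16l1/Rnaseh2b* ΔIEC organoids (4 libraries), called double knockouts here, were ATG16L1flox/flox_RNaseH2Bflox/flox_VillinCre+/-. The Villin promoter drives Cre in the intestinal epithelium, so that both alleles are lost in epithelial cells only. The 2 other *Rnaseh2b* ΔIEC samples of the study were left out by the authors for their read counts. Animal age is not given in the sources used here, and nothing states that libraries of a genotype came from separate mice or cultures, so the p-values measure the spread between these libraries.

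Chemokines are small secreted or membrane-bound proteins that bind G protein-coupled receptors on leukocytes and guide their migration. In the intestine the epithelium makes some of them constitutively, such as CCL25 and CCL28, which draw lymphocytes to the small bowel and to mucosal surfaces. Others, such as CXCL1, CXCL2, CXCL5 and CCL20, are induced through NF-kB by cytokines and bacterial products, and CXCL10 is a classical interferon-inducible gene. ATG16L1 is a core autophagy protein and RNASEH2B a subunit of the enzyme that removes ribonucleotides from DNA. How the chemokine genes of the epithelium itself behave when either or both are deleted is the question of the comparisons below.

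The values are on a log2 scale, normalized between libraries by the authors, and the transformation is not named. Read depth per library is unknown, since no counts were analysed here. Low genes are pulled together across libraries in this table, so changes of low genes are understated. Genes with a mean of at least 3.32, which is 10 on the linear scale, were tested (12802 genes), and 7 of the 9 chemokine genes were among them. *Cxcl1* (mean 3.20) and *Cxcl2* (mean 2.67) were below it and are described by their values, with an exact permutation p for *Cxcl1* alone. Differences were tested with limma in 1 fit over all 14 libraries, with p-values adjusted by Benjamini-Hochberg over all genes tested, and a gene was called at an adjusted p below 0.05.

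The deleted genes were lower where the labels say so. *Atg16l1* was at 6.92 ± 0.29 (SD, n = 4) in *Atg16l1* ΔIEC and 9.46 ± 0.05 (n = 4) in WT, and *Rnaseh2b* at 7.18 ± 0.04 (n = 2) in *Rnaseh2b* ΔIEC and 8.54 ± 0.13 (n = 4) in WT. The double knockouts sat between, with *Atg16l1* at 8.39 ± 0.19 and *Rnaseh2b* at 7.81 ± 0.10 (n = 4 each), so both transcripts were less reduced there than in the single knockouts. The 8 epithelial marker genes lay between 11.28 and 15.13 in every library, whereas the leukocyte genes *Ptprc*, *Cd3e*, *Cd79a* and *Adgre1* reached no more than 0.53. Of 10 immune genes 8 were listed, and 1 of these was high enough to be tested, *Itgam*, at 5.44 to 5.84 and called in none of the comparisons. Of 9 stromal and endothelial genes 6 were listed and 2 tested, *Pdgfrb* at 5.19 to 5.69 and *Pecam1* at 4.21 to 4.51, and *Pdgfrb* fell in double knockouts against WT and against *Atg16l1* ΔIEC. Their part in the results was not tested. Library names place all 4 WT libraries in sequencing lane 1 and all single knockout libraries in lane 2, with double knockouts 1 and 2 in lane 2 and 3 and 4 in lane 1. Lane and genotype therefore cannot be told apart for WT against a single knockout, and the double knockouts are the only genotype present in both lanes. Every lane covariate below thus rests on double knockouts 1 and 2 against 3 and 4. These are also library pairs, so lane and pair cannot be told apart there.

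Promoter sequence of 7 of the 9 genes was found in the RefSeq promoter table (GRCm38.p6, 250 bases before to 50 bases after the transcription start). Those of 4 are shown because their genes carry the results that follow: *Cxcl10* and *Ccl20*, which were higher in double knockouts, and *Cx3cl1* and *Ccl25*, which moved together. Both strands were searched for the NF-kB (kB) consensus site and for the interferon-stimulated response element (ISRE, GAAANNGAAA), and the capitals mark the matches. The *Cxcl10* sequence is chr5:92348840-92349139 on the minus strand, *Ccl20* is chr1:83116516-83116815 on the plus strand, *Cx3cl1* is chr8:94771930-94772229 on the plus strand, and *Ccl25* is chr8:4349338-4349637 on the plus strand, the downstream of its 2 listed starts.
Cxcl10: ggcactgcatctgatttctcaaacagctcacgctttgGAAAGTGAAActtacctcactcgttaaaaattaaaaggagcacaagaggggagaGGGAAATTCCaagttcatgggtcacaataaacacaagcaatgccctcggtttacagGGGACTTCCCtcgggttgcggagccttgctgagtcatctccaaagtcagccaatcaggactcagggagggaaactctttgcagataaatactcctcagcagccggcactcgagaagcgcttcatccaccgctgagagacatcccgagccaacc
Ccl20: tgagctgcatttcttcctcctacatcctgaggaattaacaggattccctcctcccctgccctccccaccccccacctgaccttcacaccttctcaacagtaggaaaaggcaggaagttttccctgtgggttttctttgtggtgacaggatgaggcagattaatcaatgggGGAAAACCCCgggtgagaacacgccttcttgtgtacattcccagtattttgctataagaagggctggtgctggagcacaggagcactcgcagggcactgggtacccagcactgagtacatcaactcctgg
Cx3cl1: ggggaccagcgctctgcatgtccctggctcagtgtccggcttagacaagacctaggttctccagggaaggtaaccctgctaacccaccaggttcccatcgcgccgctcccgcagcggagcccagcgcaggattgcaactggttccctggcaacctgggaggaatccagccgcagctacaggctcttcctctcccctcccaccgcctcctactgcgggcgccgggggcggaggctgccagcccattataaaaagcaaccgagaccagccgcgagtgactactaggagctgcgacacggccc
Ccl25: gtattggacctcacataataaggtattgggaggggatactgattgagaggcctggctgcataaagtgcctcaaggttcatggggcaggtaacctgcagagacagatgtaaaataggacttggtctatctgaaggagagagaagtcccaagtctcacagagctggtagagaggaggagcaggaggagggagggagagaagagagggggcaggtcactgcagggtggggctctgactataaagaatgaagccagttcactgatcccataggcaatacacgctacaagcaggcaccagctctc
*Cxcl10* held 1 ISRE match, 213 to 204 bases before its start and 2 kB matches, the nearer of them 103 to 94 bases before it. *Ccl20* held 1 kB match, 80 to 71 bases before its start. *Cxcl1* and *Cxcl2*, not shown, both contained the same run GGGAATTTCCC, which reads as a kB match on each strand, overlapping. No match lay in the windows of *Ccl25* (either start), *Cx3cl1* or *Ccl28*. Of all 32851 promoters of this length in the table, 4.51% held a kB match and 3.44% an ISRE match, and a match describes the letters only.

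Ranked per kilobase of the longest coding transcript, the mean level ran from *Ccl25* at 12.97 through *Cx3cl1* at 9.23, *Ccl28* at 9.05, *Cxcl16* at 7.90, *Ccl20* at 5.62, *Cxcl10* at 4.55, *Cxcl5* at 3.55 and *Cxcl1* at 3.27 to *Cxcl2* at 1.78 (log2 per kilobase). *Ccl25* was among the highest genes of the organoids: 98.2% of all listed genes had a lower mean value. *Cx3cl1* and *Ccl28* could not be ordered in WT, at 9.08 ± 0.04 and 9.10 ± 0.12 (n = 4 each), nor in double knockouts, at 8.99 ± 0.08 and 9.002 ± 0.06 (n = 4 each). The homeostatic and membrane-bound ligands thus stood above the inducible neutrophil ligands in these unstimulated organoids. Across the 14 libraries *Cxcl10* had the widest range of the 9 genes, 1.49 on the log2 scale, and *Cxcl2* the narrowest, 0.06.

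**Figure D1:**
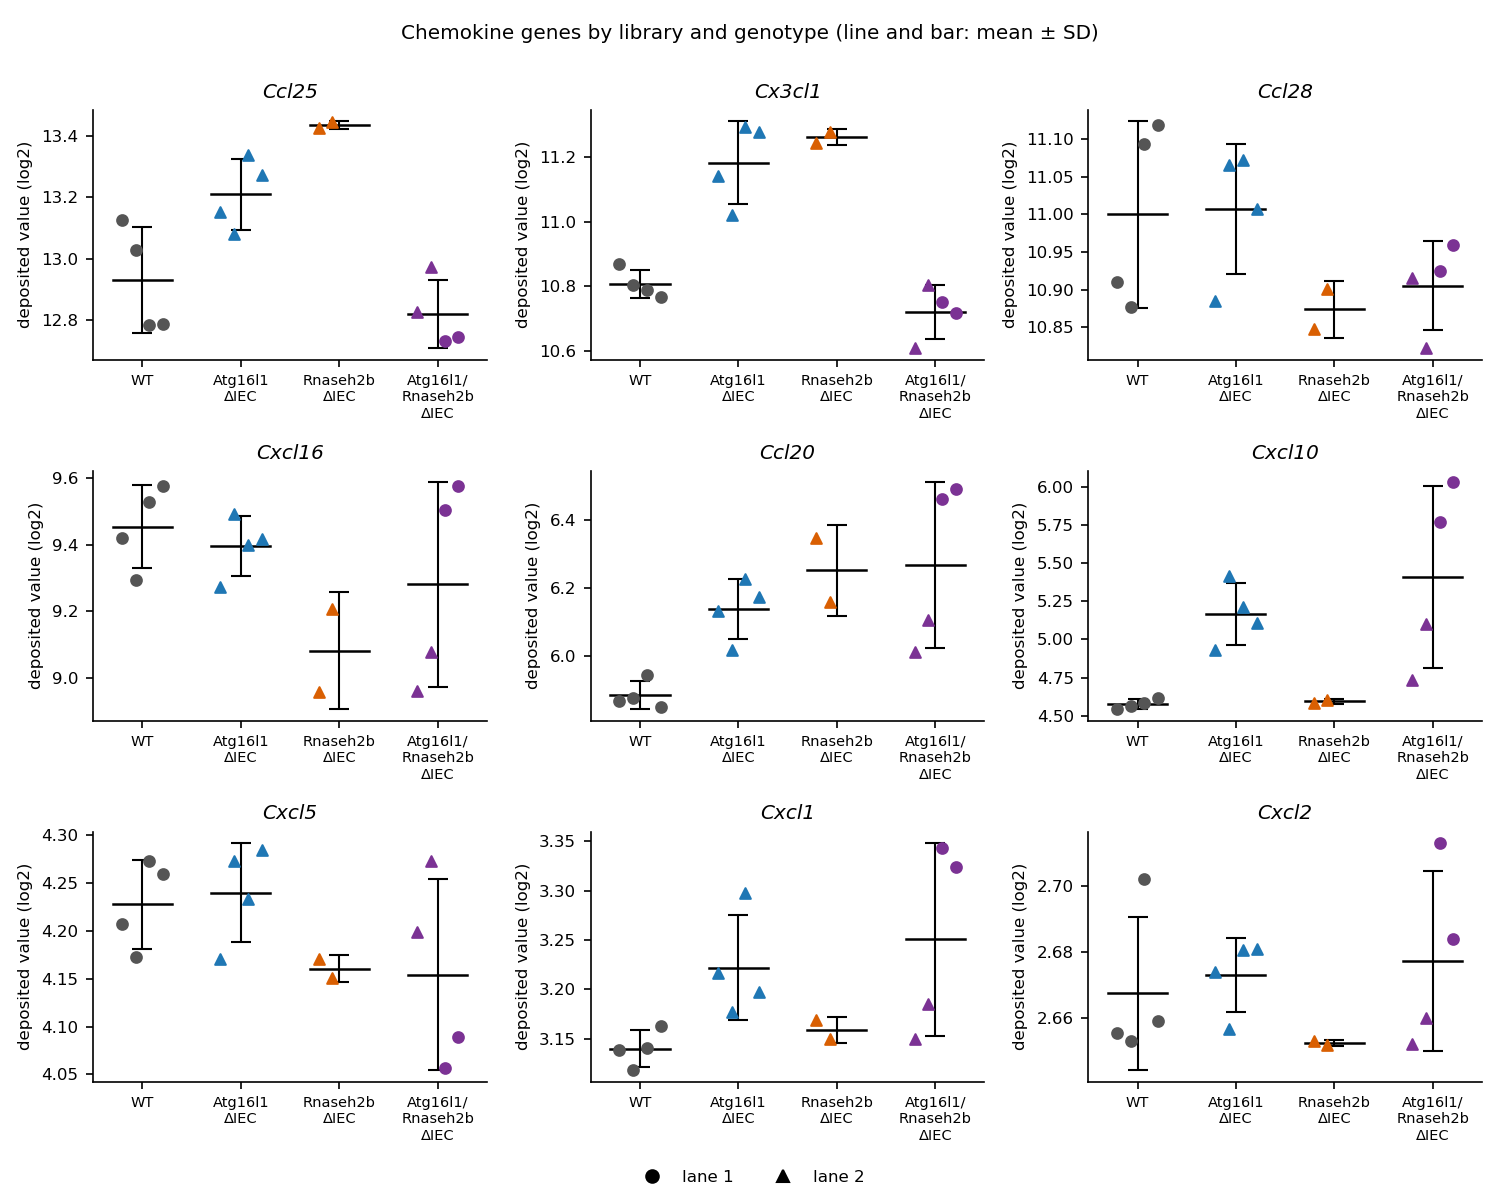
Deposited log2 values of the 9 chemokine genes in each library (points), by genotype on the horizontal axis, with the mean and SD of each genotype as lines. Circles are lane 1 and triangles lane 2 libraries, and each panel has its own vertical axis. *Ccl25* and *Cx3cl1* are high in both single knockouts and back at the WT level in double knockouts, whereas *Cxcl10* and *Ccl20* are highest in double knockouts 3 and 4.

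Over all comparisons, *Ccl25* and *Cx3cl1* rose in each single knockout but not in the double knockout, *Ccl20* rose in *Rnaseh2b* ΔIEC and in the double knockout, *Cxcl10* rose in the double knockout, and *Cxcl16*, *Ccl28* and *Cxcl5* passed no test. In *Rnaseh2b* ΔIEC against WT, 3 of 7 tested genes were called, all higher, where 26.7% of all tested genes were called in either direction. In *Atg16l1* ΔIEC against WT, 2 of 7 were called, both higher, with a background of 19.1%. The double knockout against WT gave 2 of 7, both higher, with 16.1% of all genes called.

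Against *Rnaseh2b* ΔIEC, the double knockout had 3 of 7 called, 1 higher and 2 lower, with 25.5% of all genes called. Against *Atg16l1* ΔIEC it had 2 of 7, both lower, with a background of 25.1%. Between the single knockouts, limma called 0 of 7, with 6.81% of all genes called, although 2 genes, *Cxcl10* and *Ccl25*, had an unadjusted p below 0.05. The effect of *Rnaseh2b* deletion in *Atg16l1*-deleted organoids minus its effect in *Atg16l1*-intact ones differed for 2 of 7, and for 35.1% of all genes. With 7 genes these shares are close enough to the backgrounds that the count itself is no result, and the genes are taken one at a time below. These comparisons share libraries and are not independent of each other. Within a genotype, libraries 1 and 2 resembled each other, as did 3 and 4. In WT, where both pairs are in lane 1, the pair means were 13.08 and 12.79 for *Ccl25*. They were 9.36 and 9.55 for *Cxcl16*, but 4.55 and 4.60 for *Cxcl10*. With these pairs taken into account, the calls of *Ccl20* (adjusted p = 0.17 in *Rnaseh2b* ΔIEC and 0.155 in double knockouts against WT), of *Cxcl10* (adjusted p = 0.154 and 0.159) and of *Ccl25* in *Atg16l1* ΔIEC (adjusted p = 0.15) were lost, and those of *Cx3cl1* and the other *Ccl25* calls held.

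**Figure D2:**
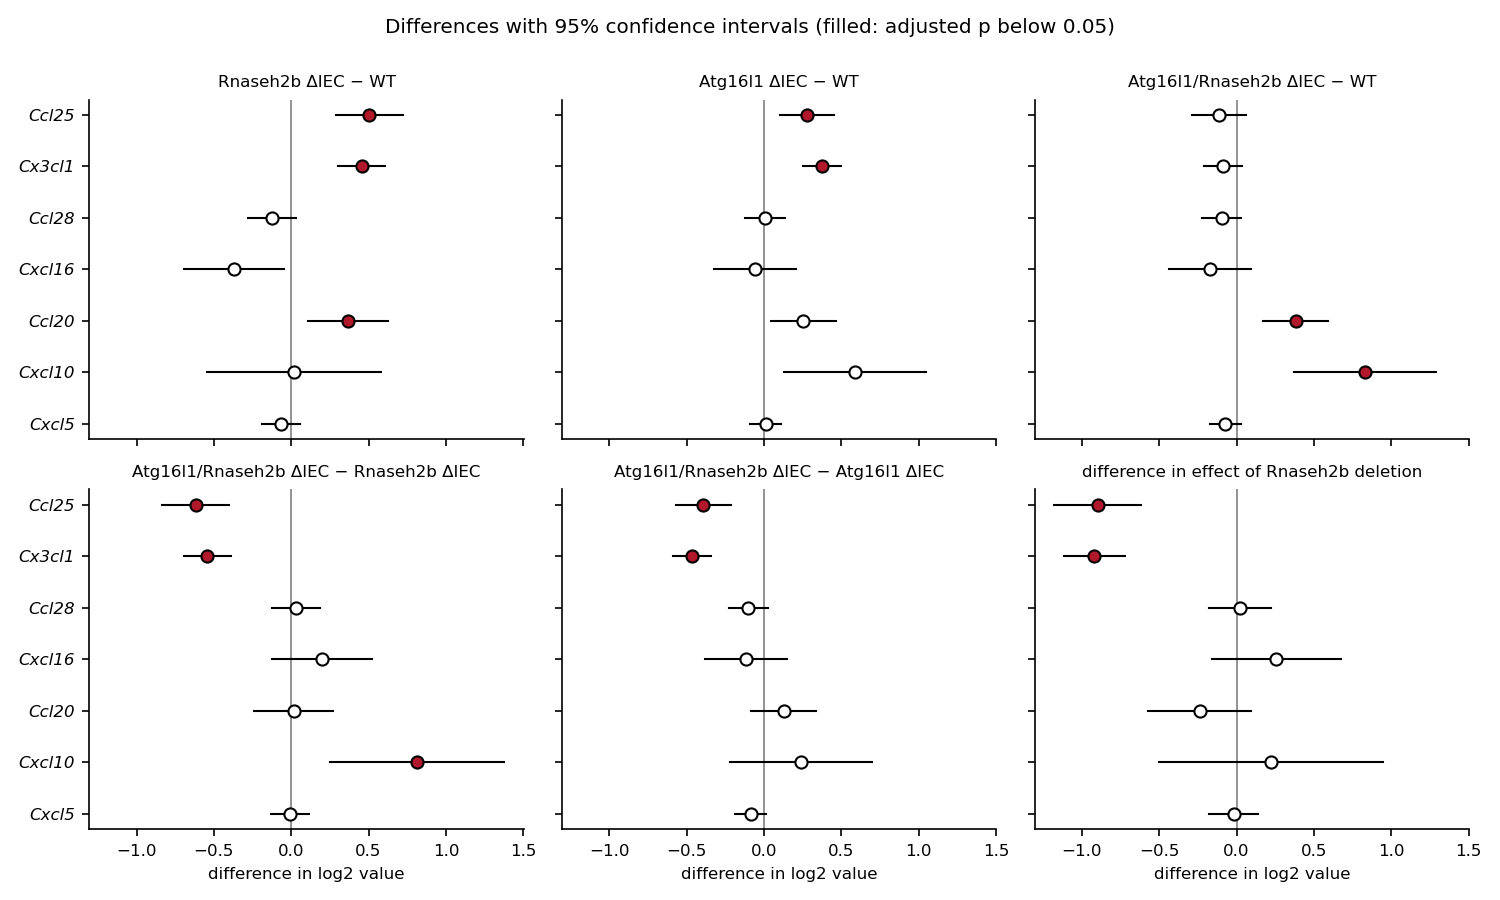
Difference in log2 value (horizontal axis) for the 7 tested chemokine genes in 6 comparisons, with 95% confidence intervals from limma. Filled points have an adjusted p below 0.05. *Cx3cl1* and *Ccl25* are to the right of 0 in both single knockouts and to the left in the comparisons of double with single knockouts.

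*Ccl25* encodes the ligand of CCR9, which homes T cells and IgA plasma cells to the small intestine, and lies on chromosome 8 (GRCm38, 4325210 to 4360020). Its log2 values were 13.13, 13.03, 12.78 and 12.79 in WT, 13.15, 13.08, 13.34 and 13.27 in *Atg16l1* ΔIEC, 13.43 and 13.45 in *Rnaseh2b* ΔIEC, and 12.83, 12.97, 12.73 and 12.74 in double knockouts. Both *Rnaseh2b* ΔIEC libraries were above every other library, and every double knockout was below every single knockout, while *Atg16l1* ΔIEC overlapped WT by 1 pair of libraries. The increase over WT was 0.51 ± 0.10 (SE) in *Rnaseh2b* ΔIEC, 1.42-fold, with adjusted p = 0.0034, and 0.28 ± 0.08 in *Atg16l1* ΔIEC, 1.21-fold, with adjusted p = 0.031. The double knockout did not pass against WT (-0.11 ± 0.08, adjusted p = 0.36). It fell by 0.62 ± 0.10 against *Rnaseh2b* ΔIEC (adjusted p = 0.0013) and by 0.39 ± 0.08 against *Atg16l1* ΔIEC (adjusted p = 0.0053).

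Tested directly, the *Ccl25* response to *Rnaseh2b* deletion was lower with *Atg16l1* also deleted by -0.90 (95% confidence interval -1.18 to -0.62, adjusted p = 0.00032). Both deleted transcripts were less reduced in double than in single knockouts, and the part of this, here and for *Cx3cl1* below, was not tested. Within lane 2 alone, the double knockout was still lower than *Rnaseh2b* ΔIEC (-0.54, adjusted p = 0.0066) and than *Atg16l1* ΔIEC (-0.31, adjusted p = 0.021). The increases over WT were not called with lane as a covariate, at 0.34 in *Rnaseh2b* ΔIEC (adjusted p = 0.14) and 0.12 in *Atg16l1* ΔIEC (adjusted p = 0.59). The second of these was also lost without WT 3 or 4, or without *Atg16l1* ΔIEC 3 or 4, where it was 0.23 to 0.26.

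*Cx3cl1* encodes fractalkine, a chemokine held on the cell surface by a mucin stalk, which serves CX3CR1-positive mononuclear phagocytes both as an adhesion molecule and, once shed, as an attractant. The gene lies on chromosome 8 (GRCm38, 94772009 to 94782427). Its log2 values were 10.87, 10.81, 10.79 and 10.77 in WT, 11.14, 11.02, 11.29 and 11.28 in *Atg16l1* ΔIEC, 11.25 and 11.28 in *Rnaseh2b* ΔIEC, and 10.61, 10.81, 10.75 and 10.72 in double knockouts. All 6 single knockout libraries were above all 8 WT and double knockout libraries. Over WT the gene rose by 0.46 ± 0.07 (SE) in *Rnaseh2b* ΔIEC, 1.37-fold, with adjusted p = 0.00071, and by 0.38 ± 0.06 in *Atg16l1* ΔIEC, 1.30-fold, with adjusted p = 0.0008. In the double knockout the difference from WT was -0.09 ± 0.06 (adjusted p = 0.31).

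The double knockout fell by 0.54 ± 0.07 against *Rnaseh2b* ΔIEC (adjusted p = 0.00037) and by 0.46 ± 0.06 against *Atg16l1* ΔIEC (adjusted p = 0.00029) for *Cx3cl1*. Its response to *Rnaseh2b* deletion was lower by -0.92 with *Atg16l1* also deleted (95% confidence interval -1.11 to -0.72, adjusted p = 2.8e-05). All calls of *Cx3cl1* held under every alternative run. Under the lane covariate the increases were 0.48 in *Rnaseh2b* ΔIEC (adjusted p = 0.015) and 0.40 in *Atg16l1* ΔIEC (adjusted p = 0.022). Within lane 2, the double knockout was -0.56 from *Rnaseh2b* ΔIEC (adjusted p = 0.0087) and -0.48 from *Atg16l1* ΔIEC (adjusted p = 0.0088).

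*Ccl25* and *Cx3cl1* followed each other over the 14 libraries (r = 0.92, a description over libraries that share genotype, and 0.66 after each genotype's mean was removed). Among the genes most like *Ccl25* over all tested genes were *Btnl1* (r = 0.99), a butyrophilin-like gene of small intestinal enterocytes, and *Slc25a51* (r = 0.98). Those most like *Cx3cl1* were *Tmem8* (r = 0.98), *Tor1aip2* (r = 0.97) and *Nipal1* (r = 0.96). The mean of 11 enterocyte genes, which include brush border enzymes and lipid carriers, had r = 0.95 with *Ccl25* and 0.82 with *Cx3cl1*, and the mean of 7 goblet cell genes had r = -0.89 and -0.93.

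Enterocyte genes moved in some of the same comparisons. In *Rnaseh2b* ΔIEC against WT, 10 of 11 were called higher, where 26.7% of all tested genes were called in either direction. All 11 were higher in value, with a median of 1.03 where the median of all genes was 0.00. *Lct*, the lactase gene, rose by 1.56 ± 0.35 (adjusted p = 0.0063). In the double knockout against *Rnaseh2b* ΔIEC, 10 of 11 were called lower, where 25.5% of all tested genes were called. All 11 were lower in value, with a median of -1.15. Against *Atg16l1* ΔIEC, the double knockout had 4 of 11 called lower, where 25.1% of all tested genes were called. In value 9 were lower and 2 higher, with a median of -0.52. In *Atg16l1* ΔIEC against WT, 1 of 11 was called higher and 10 were higher in value, with a median of 0.25. There 7 of 9 stem cell genes and 4 of 7 goblet cell genes were called lower, beside 19.1% of all tested genes called. Every gene of these 2 lists was lower in value, with medians of -0.44 and -0.56. Over the 14 libraries *Cx3cl1* had r = -0.81 with the stem cell mean and -0.68 with the Paneth cell mean, and *Ccl25* had -0.60 with each. Of 10 Paneth cell genes tested against WT, 5 were called higher in double knockouts, 1 in *Rnaseh2b* ΔIEC and 0 in *Atg16l1* ΔIEC, and none was called lower. Of all tested genes 16.1%, 26.7% and 19.1% were called in these comparisons. Called or not, 10, 8 and 3 of the Paneth cell genes were higher in value than in WT. The enterocyte mean ran from 13.37 to 14.02 in WT, 13.61 to 14.28 in *Atg16l1* ΔIEC, 14.56 to 14.67 in *Rnaseh2b* ΔIEC and 13.32 to 13.78 in double knockouts. All 7 goblet cell genes measured were called higher in the double knockout against *Atg16l1* ΔIEC, with a median of 0.50, where 25.1% of all tested genes were called. The part of cell composition in the *Ccl25* and *Cx3cl1* results was not tested, and in bulk organoid RNA fewer cells of a type and less RNA per cell cannot be told apart.

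**Figure D3:**
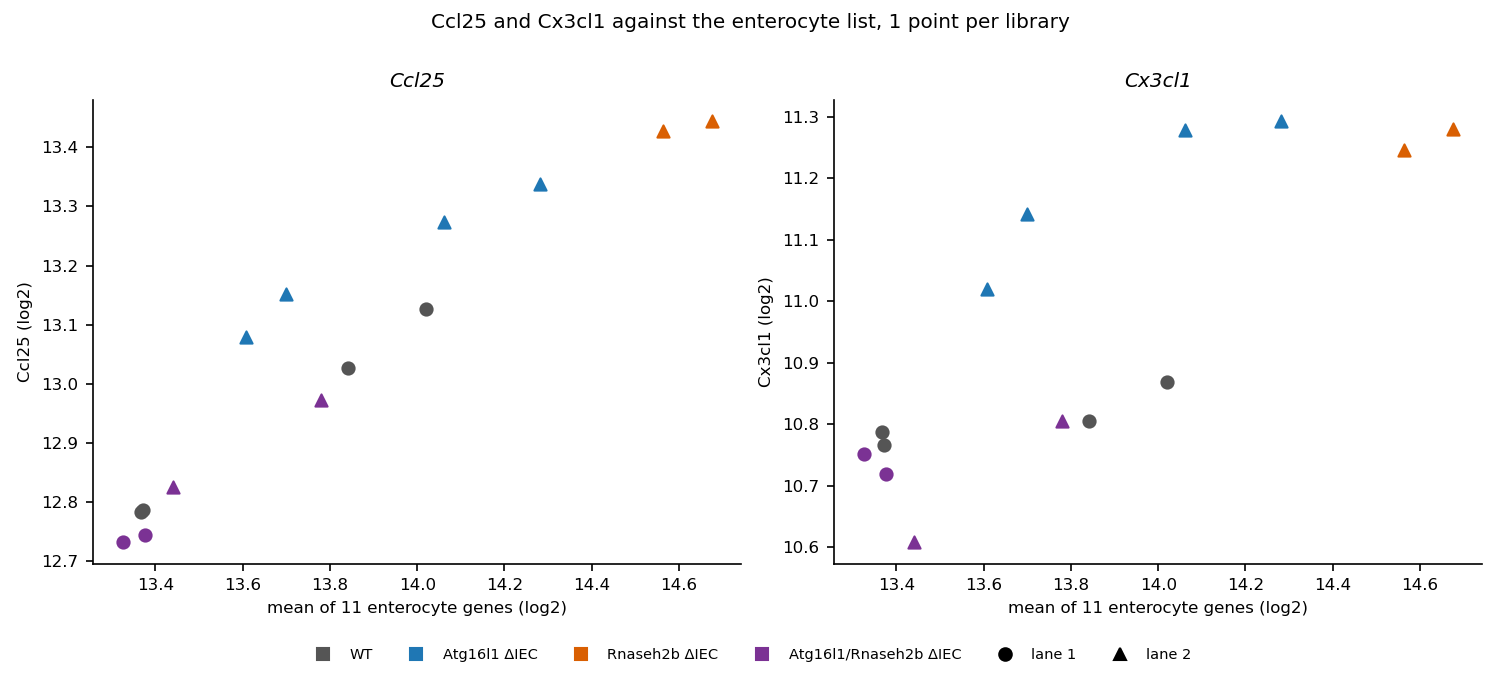
*Ccl25* (left) and *Cx3cl1* (right) in log2 value against the mean log2 value of 11 enterocyte genes, 1 point per library, with colour for genotype and shape for lane. *Ccl25* follows the list along a single band (r = 0.95), whereas in *Cx3cl1* the 4 *Atg16l1* ΔIEC libraries lie above WT and double knockouts, 2 of them at enterocyte means within the WT range and 2 above it.

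*Cxcl10* encodes an interferon-inducible ligand of CXCR3, which attracts activated T cells and NK cells. The gene lies on chromosome 5 (GRCm38, 92346638 to 92348889), 10654 bases from *Cxcl11*. The log2 values of *Cxcl10* were 4.54, 4.57, 4.59 and 4.62 in WT, 4.93, 5.41, 5.21 and 5.11 in *Atg16l1* ΔIEC, 4.58 and 4.61 in *Rnaseh2b* ΔIEC, and 4.74, 5.10, 5.77 and 6.03 in double knockouts. Every library with *Atg16l1* deleted was above every library with *Atg16l1* intact. The double knockout was 0.83 ± 0.21 (SE) above WT, 1.78-fold, with adjusted p = 0.021, and 0.81 ± 0.26 above *Rnaseh2b* ΔIEC, 1.76-fold, with adjusted p = 0.036. *Atg16l1* ΔIEC was 0.59 ± 0.21 above WT, which missed the threshold (adjusted p = 0.068), and *Rnaseh2b* ΔIEC differed from WT by 0.02 ± 0.26 (adjusted p = 0.97). With a lane covariate both were called, at 1.57 (adjusted p = 0.00025) and 0.996 (adjusted p = 0.0058), and the former also with only its own 2 genotypes fitted (0.59, adjusted p = 0.0025).

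The effect of *Rnaseh2b* deletion on *Cxcl10* with *Atg16l1* deleted minus that with it intact was 0.23 (95% confidence interval -0.50 to 0.95, adjusted p = 0.63). With a lane covariate it turned to -1.24 (adjusted p = 0.0075), and with the lane 1 double knockouts alone it was 0.71 (adjusted p = 0.0031), so its direction depended on how lane was treated. The double knockouts split by lane, which in them is also the library pair. The mean was 4.92 in libraries 1 and 2 (lane 2) and 5.90 in libraries 3 and 4 (lane 1). Against WT, the lane 1 double knockouts alone gave 1.32 (adjusted p = 3.84e-05) and the lane 2 ones 0.34 (adjusted p = 0.049). Against *Rnaseh2b* ΔIEC, the call held with the lane 1 libraries (1.30, adjusted p = 4.2e-05) but not within lane 2 (0.32, adjusted p = 0.16). It was also lost when either *Rnaseh2b* ΔIEC library or double knockout 3 or 4 was left out (0.61 to 0.83). The call against WT was lost without WT 1 (0.82, adjusted p = 0.055) or WT 2 (0.83, adjusted p = 0.053). With only double knockouts and WT fitted, the call against WT was lost as well.

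Genes most like *Cxcl10* over the 14 libraries were *Ddx60* (r = 0.98), *Isg15* (r = 0.94) and *Ifi44* (r = 0.92), all interferon-stimulated genes, and r stayed between 0.91 and 0.94 within genotypes. *Isg15*, which encodes a ubiquitin-like antiviral protein, was at 4.69 to 4.82 in WT, 5.06 to 5.63 in *Atg16l1* ΔIEC, 4.93 to 5.01 in *Rnaseh2b* ΔIEC and 4.89 to 5.91 in double knockouts. It rose by 0.57 ± 0.18 in *Atg16l1* ΔIEC (adjusted p = 0.041) and by 0.66 ± 0.18 in double knockouts (adjusted p = 0.028) against WT. The second increase was 0.27 with the lane 2 double knockouts only (adjusted p = 0.12), and leaving out single libraries ended either call. Of the 18 tested genes of a list of interferon receptors, signalling factors and targets, 2 were called higher and 2 lower in the double knockout against WT. Of all tested genes 16.1% were called there. The receptor gene *Ifngr2* was lower, by -0.25 (adjusted p = 0.0009).

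**Figure D4:**
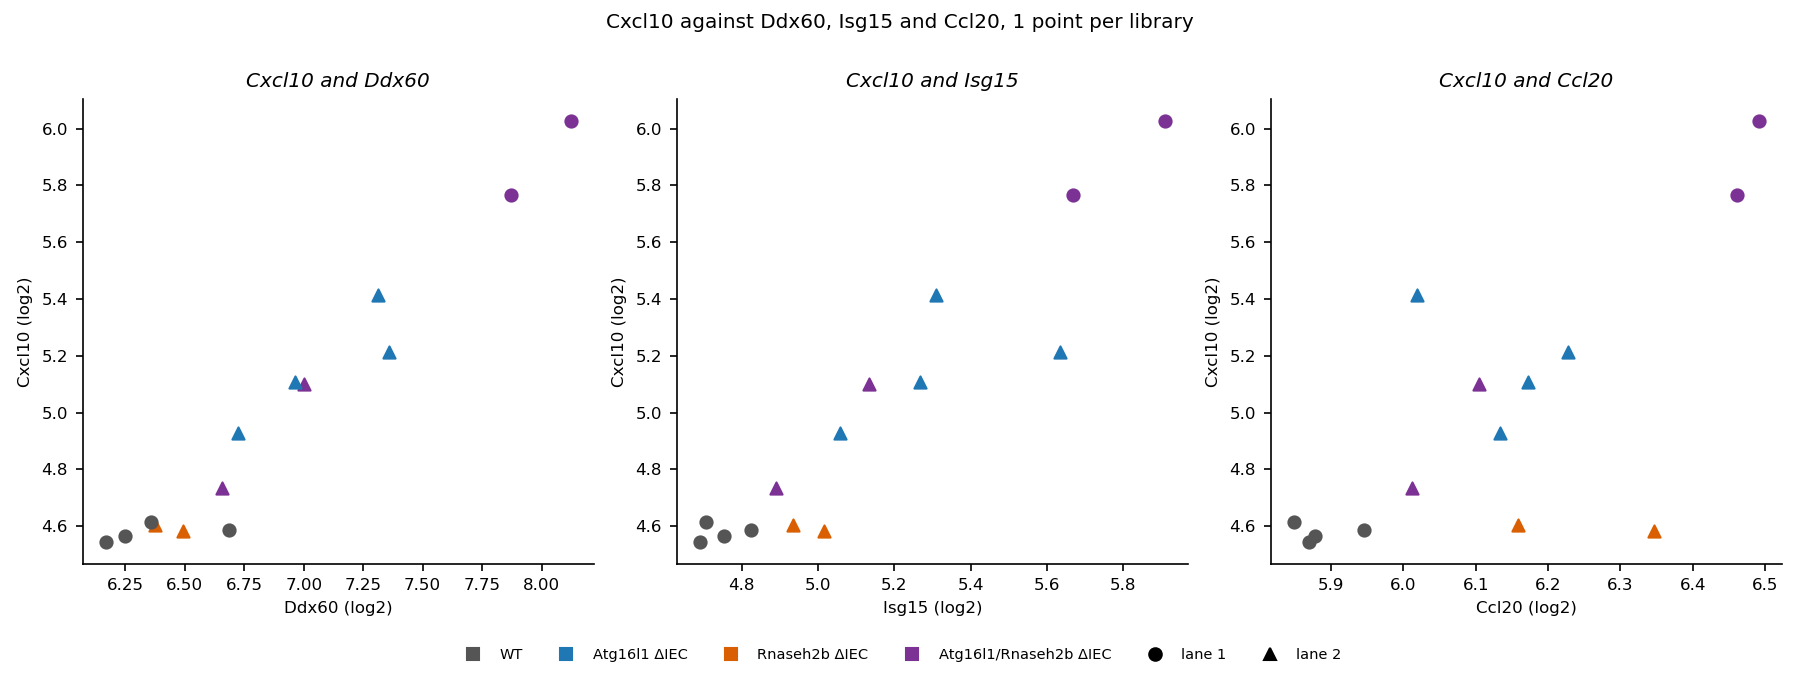
*Cxcl10* in log2 value (vertical axis) against *Ddx60*, *Isg15* and *Ccl20* (horizontal axes, log2 value), 1 point per library, with colour for genotype and shape for lane. Double knockouts 3 and 4 stand at the upper right of each panel, and the *Rnaseh2b* ΔIEC libraries, at 4.58 and 4.61 of *Cxcl10*, are level with WT while their *Ccl20* is higher than in WT.

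*Ccl20* encodes the ligand of CCR6, made above all by the epithelium over lymphoid follicles, which draws dendritic cells and B cells there. It lies on chromosome 1 (GRCm38, 83116766 to 83119167). The log2 values were 5.87, 5.88, 5.95 and 5.85 in WT, 6.13, 6.02, 6.23 and 6.17 in *Atg16l1* ΔIEC, 6.35 and 6.16 in *Rnaseh2b* ΔIEC, and 6.01, 6.11, 6.46 and 6.49 in double knockouts. All 10 knockout libraries were above all 4 WT libraries, and the 3 knockout genotypes overlapped one another. The increase over WT was 0.37 ± 0.12 (SE) in *Rnaseh2b* ΔIEC, 1.29-fold, with adjusted p = 0.037, and 0.38 ± 0.10 in double knockouts, 1.30-fold, with adjusted p = 0.02. In *Atg16l1* ΔIEC it was 0.25 ± 0.10 (adjusted p = 0.085).

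These *Ccl20* calls were close to the threshold. The first was lost without either *Rnaseh2b* ΔIEC library (0.27 and 0.46) and without any 1 of the WT libraries (0.36 to 0.39). It was also lost without the filter on low genes (adjusted p = 0.054). The second was lost without WT 1 (0.38, adjusted p = 0.054) or WT 2 (0.38, adjusted p = 0.053), and with only double knockouts and WT fitted. As with *Cxcl10*, the double knockouts differed by lane, and so by library pair, at 6.06 in lane 2 and 6.48 in lane 1. Those of lane 2 alone were 0.17 above WT (adjusted p = 0.088), those of lane 1 alone 0.59 (adjusted p = 0.00042). With a lane covariate *Atg16l1* ΔIEC was called against WT (0.67, adjusted p = 0.0013), as was the difference in effect of *Rnaseh2b* deletion (-0.86, adjusted p = 0.0025), which was otherwise -0.24 (adjusted p = 0.25). The gene most like *Ccl20* was *Apol9a* (r = 0.90).

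*Cxcl16* encodes the other membrane-anchored chemokine, which binds CXCR6 on T cells and NKT cells and also takes up oxidized lipoprotein. The gene lies on chromosome 11 (GRCm38, 70453983 to 70459984). Its log2 values were 9.42, 9.29, 9.53 and 9.58 in WT, 9.27, 9.49, 9.40 and 9.42 in *Atg16l1* ΔIEC, 8.96 and 9.21 in *Rnaseh2b* ΔIEC, and 8.96, 9.08, 9.50 and 9.58 in double knockouts. Both *Rnaseh2b* ΔIEC libraries were below every WT and *Atg16l1* ΔIEC library, and the double knockouts fell into a low pair in lane 2 and a pair at the WT level in lane 1. No comparison was called: *Rnaseh2b* ΔIEC was at -0.37 ± 0.15 (SE) from WT (adjusted p = 0.083) and the double knockout at -0.17 ± 0.12 (adjusted p = 0.35). With the lane 2 double knockouts alone, the difference from WT was -0.43 (adjusted p = 0.0059) and from *Atg16l1* ΔIEC -0.38 (adjusted p = 0.013), and with those of lane 1 alone the difference from *Rnaseh2b* ΔIEC was 0.46 (adjusted p = 0.0058). A lane covariate turned *Atg16l1* ΔIEC against WT from -0.06 to 0.46 (adjusted p = 0.03).

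**Figure D5:**
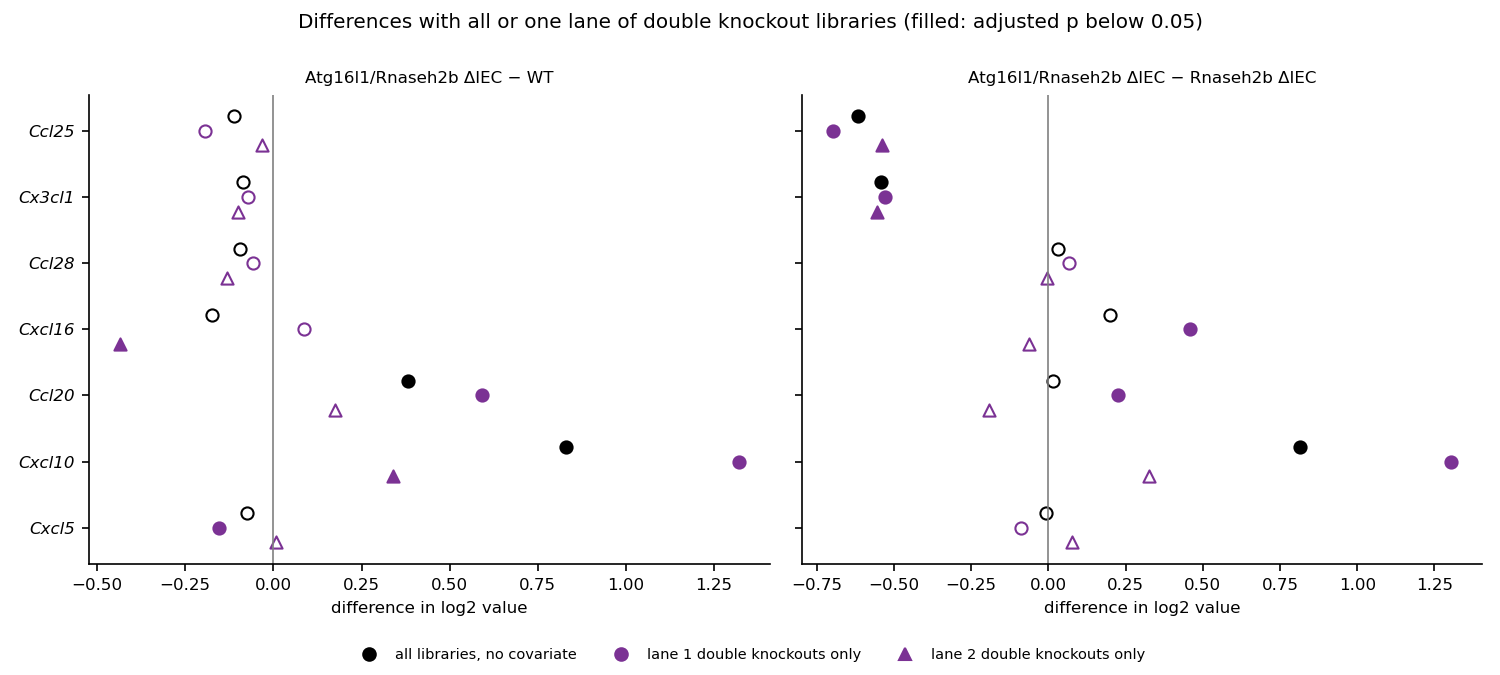
Difference in log2 value of the 7 tested chemokine genes between double knockouts and WT (left) or *Rnaseh2b* ΔIEC (right), with all 4 double knockout libraries (black) or those of 1 lane (purple circles lane 1, triangles lane 2). Filled points have an adjusted p below 0.05. The points of *Ccl25* and *Cx3cl1* lie close together, and those of *Cxcl10*, *Cxcl16* and *Ccl20* are apart, as in the *Cxcl10* values of 1.32 and 0.34 on the left.

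*Ccl28*, the mucosal chemokine that binds CCR10 and CCR3 and attracts IgA plasma cells, was at a similar level in all genotypes. It lies on chromosome 13 (GRCm38, 119623819 to 119654359), and its values were 10.91, 10.88, 11.09 and 11.12 in WT, 10.88, 11.07, 11.07 and 11.01 in *Atg16l1* ΔIEC, 10.85 and 10.90 in *Rnaseh2b* ΔIEC, and 10.92, 10.82, 10.93 and 10.96 in double knockouts. The groups overlapped in each of the 6 comparisons between genotypes. The difference of *Rnaseh2b* ΔIEC from WT was -0.13 (95% confidence interval -0.28 to 0.03), that of *Atg16l1* ΔIEC 0.01 (-0.12 to 0.13) and that of double knockouts -0.09 (-0.22 to 0.03), none called (adjusted p = 0.21, 0.95 and 0.28).

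*Cxcl5*, *Cxcl1* and *Cxcl2* encode ligands of CXCR2, which recruit neutrophils, and were the lowest of the 9 genes. They lie in the same region of chromosome 5, *Cxcl5* 129616 bases from *Cxcl1* and *Cxcl1* 10755 bases from *Cxcl2*. *Cxcl5* was at 4.21, 4.17, 4.27 and 4.26 in WT, 4.17, 4.27, 4.23 and 4.28 in *Atg16l1* ΔIEC, 4.17 and 4.15 in *Rnaseh2b* ΔIEC, and 4.20, 4.27, 4.06 and 4.09 in double knockouts. No difference was called, and that of double knockouts from WT was -0.07 (95% confidence interval -0.17 to 0.03, adjusted p = 0.29). With the lane 1 double knockouts alone it was -0.16 (adjusted p = 0.038). A lane covariate called it too (-0.16, adjusted p = 0.035), and likewise *Rnaseh2b* ΔIEC against WT, at -0.23 (adjusted p = 0.038) in place of -0.07.

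*Cxcl1*, under the level for testing, was at 3.14, 3.12, 3.14 and 3.16 in WT, 3.22, 3.18, 3.30 and 3.20 in *Atg16l1* ΔIEC, 3.17 and 3.15 in *Rnaseh2b* ΔIEC, and 3.15, 3.18, 3.34 and 3.32 in double knockouts. *Atg16l1* ΔIEC did not overlap WT, with a difference of 0.08 and an exact two-sided permutation p of 0.029, the smallest that 4 against 4 libraries can give, not adjusted over the comparisons. Double knockouts 3 and 4 were the highest libraries, as they were for *Cxcl10* and *Ccl20*. *Cxcl2* ranged from 2.65 to 2.71 over all libraries, and its largest difference between genotypes was 0.02, a span in which the pulling together of low values leaves little to read.

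Other chemokine ligands were fewer. Of 27 further ligand genes 18 were listed and 4 had a mean high enough to be tested. *Ccl9*, a CCR1 ligand of follicle-associated epithelium and myeloid cells, was at 5.89, 6.19, 6.29 and 6.34 in WT and 7.32, 6.98, 6.85 and 6.69 in double knockouts, with no overlap, and rose by 0.78 ± 0.14 (SE, adjusted p = 0.0047). Its neighbour *Ccl6* rose by 0.56 ± 0.12 in the same comparison (adjusted p = 0.0079), which was not called with the lane 1 double knockouts alone (0.39, adjusted p = 0.053). Neither gene was called in a single knockout against WT, nor in double knockouts against *Rnaseh2b* ΔIEC. Both *Rnaseh2b* ΔIEC libraries, at 6.77 and 6.54, were above every WT library for *Ccl9*, whereas for *Ccl6* they overlapped WT. *Cxcl11*, a neighbour of *Cxcl10* and another gene of the CXCR3 ligands, is annotated in GRCm38 as a polymorphic pseudogene. It stayed between 3.71 and 4.34 and did not share the high values of double knockouts 3 and 4, which were 3.78 and 3.73.

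Of 23 chemokine receptor genes 14 were listed, and among these the receptors *Cxcr2*, *Ccr9*, *Ccr10* and *Cx3cr1* were below 0 in every library. The receptors of CXCL10, CXCL16 and CCL20 were not among these 14. One, *Ccrl2*, an atypical receptor that presents chemerin, was high enough to be tested, and was 0.18 ± 0.05 (SE) higher in *Rnaseh2b* ΔIEC than in WT (adjusted p = 0.015), a call lost without either *Rnaseh2b* ΔIEC library (0.18 and 0.19).

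The proteases that release CX3CL1 and CXCL16 from the cell surface went the other way from *Cx3cl1*. *Adam17*, the main inducible sheddase, was at 10.38, 10.38, 10.37 and 10.32 in WT, 10.10, 10.01, 9.91 and 9.90 in *Atg16l1* ΔIEC, 10.09 and 10.07 in *Rnaseh2b* ΔIEC, and 10.31, 10.26, 10.34 and 10.26 in double knockouts. All single knockout libraries were below all WT and double knockout libraries. It fell by 0.28 ± 0.05 (SE) in *Rnaseh2b* ΔIEC (adjusted p = 0.0018) and by 0.38 ± 0.04 in *Atg16l1* ΔIEC (adjusted p = 7.7e-05) against WT. *Adam10*, the constitutive sheddase, fell by 0.22 ± 0.04 (adjusted p = 0.0012) and by 0.16 ± 0.03 (adjusted p = 0.0038). Under the lane covariate these were -0.17 (adjusted p = 0.054) and -0.11 (adjusted p = 0.17). Of the 4 genes listed, 3 were lower in value than WT in each single knockout, and these were the pair called lower. *Rhbdf2*, which encodes the iRhom2 partner of ADAM17, rose by 0.16 ± 0.06 in *Rnaseh2b* ΔIEC (adjusted p = 0.045).

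NF-kB pathway genes, known to act upstream of *Ccl20*, *Cxcl1*, *Cxcl2* and *Cxcl5*, were called in both directions. Of 29 tested, 6 were called higher and 2 lower in *Rnaseh2b* ΔIEC, 6 and 1 in *Atg16l1* ΔIEC, and 2 and 1 in double knockouts, each against WT. Of all tested genes 26.7%, 19.1% and 16.1% were called, and beside these shares the counts are no result in themselves. List medians were -0.01, 0.09 and 0.00 beside medians of 0.00 for all genes. Called or not, 14, 22 and 15 of the 29 were higher than in WT. *Tnfaip3*, a feedback gene of the pathway that encodes A20, fell by 0.83 ± 0.10 (SE, adjusted p = 0.00013), by 0.57 ± 0.08 (adjusted p = 0.00047) and by 0.37 ± 0.08 (adjusted p = 0.0097) in these 3 comparisons. *Icam1*, an adhesion gene of the same list, rose by 0.73 ± 0.07 (adjusted p = 4.4e-05), 0.23 ± 0.06 (adjusted p = 0.015) and 0.30 ± 0.06 (adjusted p = 0.0071). The second of these was 0.24 (adjusted p = 0.14) with a lane term. *Tnfaip3* and *Icam1* thus moved in opposite directions, and NF-kB activity was not tested. The receptor gene *Il17ra* rose by 0.36 ± 0.04 in *Rnaseh2b* ΔIEC (adjusted p = 0.00017) and by 0.25 ± 0.04 in *Atg16l1* ΔIEC (adjusted p = 0.00051), in the same comparisons as *Cx3cl1*.

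Of the chemokine genes, 3 overlap a gene on the opposite strand, *Cxcl10* with *Art3*, *Cxcl16* with *Zmynd15* and *Ccl25* with *Elavl1*. The library kit keeps the strand of the RNA, but whether the counting used it is not stated in the sources used here.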

How the data were processed

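Total RNA of organoids was sequenced as 50-base single reads with a stranded mRNA protocol. Per the methods and processing notes, adapters and poor bases were removed by the authors in cutadapt, TopHat2 placed the reads on GRCm38, HTSeq gave gene counts and DESeq2 served for testing (versions not given in the sources used here). The deposited table holds log2 values, from -2.13 to 17.45, normalized by the authors with a transformation that is not named. Of all values, 16.9% are below 0, and low genes vary little between libraries, which understates their changes. All 14 columns were mapped to samples. Symbols were taken from GENCODE M21, which covered 99.7% of the table's identifiers.

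Genes with a mean of at least 3.32 were fitted with limma 3.58.1 (R 4.3.3), with 1 mean per genotype, over all 14 libraries and with a mean-variance trend. The script was tested on simulated data with independent libraries. These had no lanes or library pairs, so the test does not show how the fit behaves with them. Exact two-sided permutation tests were used for single genes under the filter. The 9 chemokine genes, the gene lists and the tests were chosen with earlier results of these data known. From each list, the genes with the largest called change were named, up to 4, and for each chemokine gene the 3 tested genes with the highest Pearson r. The genes that check cell identity are outside this rule and were named after their values were seen. Some genes that the rule names are not reported here. Lanes were read from library names. Libraries with the same number in different genotypes did not deviate together (r from -0.50 to 0.44 over 18 pairs), whereas libraries 1 and 2, or 3 and 4, of a genotype did (r from 0.41 to 0.86 over 6 pairs), which was fitted as an alternative with a consensus correlation of 0.65. Other alternatives changed the filter, pseudocount, scaling, trend, lane term, replicate block and the libraries used.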

Additional observations from a re-analysis of the deposited data

Results flagged for a closer look

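The response of 2 chemokine genes to *Rnaseh2b* deletion differed with the state of *Atg16l1*, by the interaction term of the limma fit: *Ccl25* by -0.90 and *Cx3cl1* by -0.92 on the log2 scale. Both were higher than WT in each single knockout and near WT in double knockouts. The *Atg16l1* and *Rnaseh2b* transcripts were themselves less reduced in double than in single knockouts, and the part of this in the 2 results was not tested.

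*Cxcl2* in WT 3 stood apart from the other 3 WT libraries, with a gap to the nearest of 0.881 of the group's whole range, which was 2.65 to 2.70. It was 1 of 27 groups of 4 libraries examined, and chance flags about 1 in 20.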

How the results depend on the processing

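Pairing each genotype's libraries 1 and 2, and 3 and 4, left 1 chemokine gene called in *Atg16l1* ΔIEC against WT and 0 in double knockouts against WT (limma, with 2 at an unadjusted p below 0.05 without the pairs). The latter count was also 0 with only those 2 genotypes fitted and 1 with a mean of at least 50. A lane covariate gave 4 called in *Atg16l1* ΔIEC against WT, 2 between the single knockouts and 4 for the difference in effect of *Rnaseh2b* deletion. Between the single knockouts 1 was called with only those groups fitted, and 1 within lane 2. With the lane 1 double knockouts only, an alternative chosen after seeing the data, 5 were called against *Rnaseh2b* ΔIEC, 5 against *Atg16l1* ΔIEC and 4 for the difference in effect. Leaving out single libraries gave 1 to 4 called in *Atg16l1* ΔIEC against WT, 0 to 2 in double knockouts against WT, 2 to 4 in *Rnaseh2b* ΔIEC against WT and 2 to 3 in double knockouts against *Rnaseh2b* ΔIEC. The share of all tested genes called was taken in the main fit only, so these counts under alternatives are no result in themselves. Of the 49 differences of the 7 tested chemokine genes, 14 changed sign with the lane covariate, and 2 of these were then called. Those 2 were the difference in effect on *Cxcl10* (-1.24, adjusted p = 0.0075) and *Cxcl16* in *Atg16l1* ΔIEC against WT (0.46, adjusted p = 0.03). Of other named genes, *Ifngr1* changed sign in the same comparison, to a log2 difference of 0.0079. Its means without the covariate were 12.51 in *Atg16l1* ΔIEC and 12.91 in WT. The difference in effect on *Krt18* changed from 0.28 to -0.025 on the log2 scale. The cause was not tested. The replicate block, fitted although the numbers do not pair the samples, left 2 called in double knockouts against *Rnaseh2b* ΔIEC in place of 3, since *Cxcl10* was then 0.64 (adjusted p = 0.085), and changed no other call of these genes. With the pairs, *Ccl9*, *Ccl6*, *Isg15*, *Adam10*, *Ccrl2*, *Icam1* (except *Rnaseh2b* ΔIEC against WT) and *Tnfaip3* (double knockouts against WT) lost calls named above. Without the filter, *Ccl20* in *Rnaseh2b* ΔIEC against WT (adjusted p = 0.054) and *Cxcl10* in double knockouts against *Rnaseh2b* ΔIEC (adjusted p = 0.056) were not called. No other scaling, pseudocount or trend setting changed a call of the 9 genes, and read depth could not be examined.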

Other observations

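Within genotypes, after each genotype's mean was removed, *Cxcl10* and *Cxcl16* varied together (r = 0.90 over 14 libraries), as did *Cxcl10* and *Ccl20* (r = 0.77) and *Cxcl16* and *Ccl20* (r = 0.65). With genotype means kept, the first r was 0.42, the second 0.72 and the third -0.03. The libraries include double knockouts 1 and 2 in lane 2 and 3 and 4 in lane 1. The part of the lane, or of the library pair, was not tested, and the values are a description.

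The genes most like *Cxcl16* over the libraries were *Bbof1* (r = 0.95), *Rasgef1b* and *Stpg1* (r = 0.94 each), and those most like *Ccl28* were *Dap* (r = 0.89), *Polr3gl* and *Esd* (r = 0.88 each). For *Cxcl5* they were *Cfap57* and *Tkt* (r = 0.87 each) and *Gcg* (r = 0.86), the proglucagon gene of enteroendocrine cells.

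Genes of M cells and the follicle-associated epithelium, where *Ccl20* is typically made, were called in both directions. Of 6 tested, 2 were called higher and 1 lower in *Rnaseh2b* ΔIEC, 0 and 1 in *Atg16l1* ΔIEC, and 1 and 1 in double knockouts, each against WT. Of all tested genes 26.7%, 19.1% and 16.1% were called, and the counts are no result in themselves. The one called higher in double knockouts was *Ccl9*. *Gp2*, the defining M cell gene, was at or near the floor of the table in all libraries, between -2.13 and -2.12.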
